A study of Mus musculus with 21 samples.

Results

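The miR-26 family is a group of small regulatory RNAs that in the mouse come from 3 genes, Mir26a-1, Mir26a-2 and Mir26b. Its members in the deposited miRNA-seq table were the rows named mmu-miR-26a-5p, mmu-miR-26a-1-3p, mmu-miR-26b-5p and mmu-miR-26b-3p, 4 of the 1647 miRNAs listed. They were chosen by name and not by their values. The data came from wild-type, untreated mice of both sexes at embryonic day 16 (E16), the day of birth (P0) and postnatal day 16 (P16). Cochlear sensory epithelium (SE) of the C57BL/6JOlaHsd strain gave 2 E16, 4 P0 and 4 P16 libraries, and the superior olivary complex (SOC), the auditory brainstem region that compares input from both ears, of C57Bl6/J mice gave 4, 4 and 3. Every library was made from pooled tissue of several animals, so the spread between libraries is not that between single animals, and SOC tissue was cut from frozen brain and holds more than neurons. RNA of the 2 organs was extracted and prepared with different kits, so the organ and the kit cannot be told apart and levels are not compared between organs. In such bulk tissue, fewer cells of a type and less RNA per cell cannot be told apart either.

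A miRNA hairpin is cut into a 5p and a 3p arm. An arm loaded into an Argonaute protein pairs with messenger RNAs mainly through its seed, bases 2 to 8, and lowers their output. All miR-26 genes lie in introns of genes for small phosphatases of the carboxy-terminal domain of RNA polymerase II (Ctdsp genes). These phosphatases act with the repressor REST to keep neuronal genes silent in cells that are not neurons, and miR-26 is known to repress its own host Ctdsp2 during neurogenesis. In the usual description of the family the 5p arm is the loaded strand and the 3p arm is the one discarded.

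The mature sequences are shown because they decide which genes a count can be traced to. Each is printed 5′ to 3′ with the seed in capitals. They are RefSeq sequences of build GRCm38.p6, which matched 5 of the 5 family rows of the table, the 4 members and miR-26a-2-3p, the 3p arm of Mir26a-2.
miR-26a-5p: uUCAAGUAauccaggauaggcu
miR-26b-5p: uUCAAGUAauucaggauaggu
miR-26a-1-3p: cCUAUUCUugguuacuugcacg
miR-26a-2-3p: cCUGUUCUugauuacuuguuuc
miR-26b-3p: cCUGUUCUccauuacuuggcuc
The 5p arms shared the seed UCAAGUA, which no other listed miRNA with a sequence had (2 miRNAs in all, of 1415 of the 1647 that could be matched). Counted from the 5′ end, miR-26a-5p and miR-26b-5p were identical at 19 of 21 positions compared and differed by C11U and C21U, with miR-26a-5p 22 bases long and miR-26b-5p 21. The 3p arms were less alike. The seed of miR-26a-1-3p, CUAUUCU, was found in 1 listed miRNA, whereas miR-26a-2-3p and miR-26b-3p shared CUGUUCU with miR-7039-3p. MiR-26a-1-3p differed from miR-26b-3p at 8 of 22 positions, including A4G inside the seed.

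In the GENCODE annotation of the same build, Mir26b lay in chr1:74394310-74394394 on the plus strand, in intron 4 of the principal transcript of Ctdsp1, which has 7 exons. Mir26a-1 lay in chr9:119031796-119031885, in intron 5 of the 8-exon gene Ctdspl, and Mir26a-2 in chr10:126995530-126995613, in intron 5 of the 8-exon gene Ctdsp2. All 3 had the orientation of their host. No annotated exon of Ctdsp1 or Ctdspl overlapped the hairpin, whereas 2 transcripts of Ctdsp2 had an exon over Mir26a-2. Since miR-26a-5p is the same molecule from Mir26a-1 (chr9:119031811-119031832) and Mir26a-2 (chr10:126995543-126995564), its counts cannot be divided between chromosomes 9 and 10, and only the 3p arms tell these genes apart. How the authors assigned reads that fit both miR-26a-5p and miR-26b-5p is not given in the sources used here, so the split between them is uncertain.

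Library totals ran from 124400 to 447419 counts in the cochlear SE and from 8309669 to 18053698 in the SOC, so 1 count weighed far more in the SE. Levels are given as CPM, counts scaled to library size, after trimmed mean of M values (TMM) normalization within each organ. The SE libraries carried the hair cell markers miR-183-5p, miR-96-5p and miR-182-5p at a summed 16693 to 55891 CPM, and the SOC libraries the neuronal list (miR-124-3p, miR-9-5p, miR-128-3p and miR-138-5p) at 39582 to 117780. The hair cell list was also high in the SOC at E16 (85041 to 164668 CPM). It stood there at 4392 to 28713 at P0 and 521 to 3502 at P16. The authors likewise report miR-96 and miR-182 in the SOC, with expression that fell as the SOC matured. The SOC libraries formed 3 sets that the labels do not name. Replicates 2 and 3 of E16 and of P0 had over 10% of counts on miR-99b-5p. P16 replicates 2 and 3, with P0 replicate 4, had under 1% on miR-191-5p. The 4 other libraries (E16 replicates 1 and 4, P0 replicate 1 and P16 replicate 1) had neither. No time point was spread evenly over the sets. In the SE, P16 replicate 2 had a TMM factor of 0.647, against 0.857 to 1.33 in the 9 others.

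A differentially expressed (DE) miRNA had a false discovery rate (FDR) under 0.05 in edgeR's quasi-likelihood test over all miRNAs tested in that organ, had changed over 1.5-fold, and had all libraries of one time point above all those of the other. All 4 members passed the filter on low values in both organs. In the SE, 1 of 4 members was DE between P0 and E16, miR-26a-5p, which was lower at P0. Of the 896 miRNAs tested there, 16.6% were DE and lower and 7.81% DE and higher. For P16 against E16, 0 of 4 members were DE, with a background of 18.6% lower and 10.9% higher. For P16 against P0 it was also 0 of 4, with 6.58% lower and 3.91% higher. At an unadjusted p under 0.05 there were 0 members for P16 against E16 and 2 for P16 against P0, and DESeq2 called 0 in both. In DESeq2 miR-26a-5p had an FDR of 0.00263 for P16 against P0 (log2 fold change 1.37), and only the overlap of libraries kept it from being called.

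In the SOC, 0 of 4 members were DE between P0 and E16, where 1 had an unadjusted p under 0.05 and DESeq2 called 0. Of the 694 miRNAs tested, 4.18% were lower and 2.45% higher. Between P16 and E16, 1 of 4 was DE and lower, against 20% lower and 21.2% higher in all. Between P16 and P0, 1 of 4 was DE and lower, against 8.07% in either direction. Both calls were miR-26a-1-3p. With 4 members, a count of 1 cannot be set apart from these backgrounds. Scaling by library totals alone moved the median log2 fold change of all SE miRNAs from 0.00 to -0.38 at P0 and from -0.09 to -0.58 at P16 against E16. The share of SE calls that were higher went from 32.0% to 15.6% and from 37.0% to 23.5%, and in the SOC at P0 from 37.0% to 49.0%. No DE member changed direction under that scaling.

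**Figure D1:**
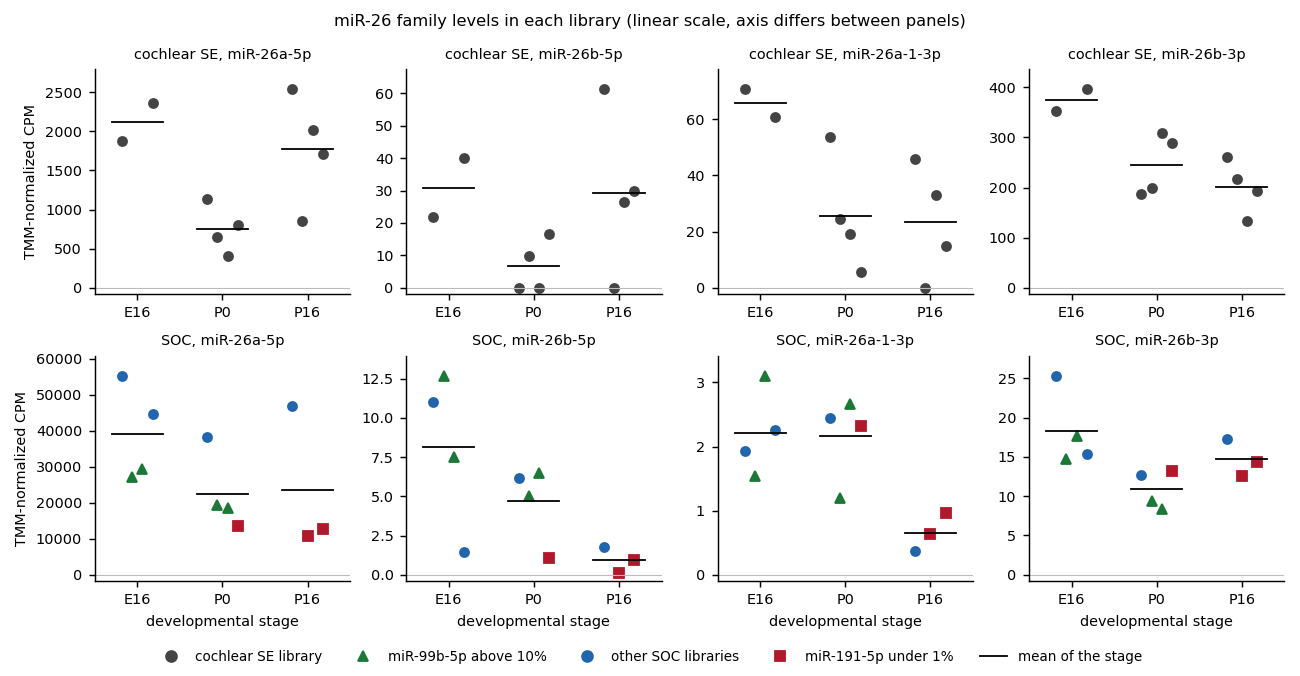
TMM-normalized CPM (linear vertical axes that differ between panels) of the 4 members in each of the 21 libraries by stage, with cochlear SE above and SOC below. Points are libraries, shaped and coloured in the SOC by library set, and horizontal lines are stage means. In the SE, miR-26a-5p lies at 405 to 1129 CPM at P0, under both E16 libraries, and in the SOC the highest miR-26a-5p point at every stage belongs to the set with neither mark.

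MiR-26a-5p, the abundant member, fell in the SE between E16 and P0. At E16 its levels were 1879 and 2366 CPM. At P0 they were 1129, 643, 405 and 804 CPM in replicates 1 to 4. At P16 they were 2537, 856, 2013 and 1711 CPM. Every P0 library lay below both E16 libraries, and 3 of the 4 P16 libraries lay above every P0 library, whereas P16 replicate 2 lay inside the P0 range. The means were 2122 ± 344 (SD, n = 2), 745 ± 304 (n = 4) and 1779 ± 703 CPM (n = 4). The fall to P0 was 2.84-fold, -1.51 on the log2 scale (standard error 0.39, FDR 0.00125). The difference of P16 from P0 was 1.26 on the log2 scale (standard error 0.34, FDR 0.00289) and was not DE because of the overlap. P16 and E16 differed by -0.25 (standard error 0.40, FDR 0.636).

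The call at P0 rested in part on 1 library. Without E16 replicate 2 the log2 fold change was -1.38 with an FDR of 0.0578, and with all 21 libraries in one fit the FDR was 0.106. Without P16 replicate 2 the difference of P16 from P0 was 1.57 (FDR 2.8e-05) and DE. All 4 members had P0 libraries that did not overlap with the 2 at E16, as had 48.1% of all miRNAs tested in the SE.

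Other miRNAs of the SE also differed between E16 and P0. The summed neuronal list stood at 2828 to 3328 CPM at E16, was 642 to 1236 at P0 and was 1090 to 1594 at P16. Of its 4 miRNAs, 3 were DE and lower at P0, as were 16.6% of all miRNAs tested in the SE. The 7 epithelial miRNAs of the miR-200 family, miR-203-3p and miR-205-5p summed to 14713 to 22593, 5660 to 7808 and 2499 to 7054 CPM, with 3 of 7 DE and lower at P0. Most of that sum was miR-429-3p, which averaged 14888 CPM at E16 and 3387 at P0. The list did not move as one, since miR-205-5p gave 1.01 (FDR 0.104), with every P0 library above both E16 libraries, and miR-200c-3p gave 0.050. The hair cell list summed to 52240 to 55891 CPM at E16, 33753 to 38017 at P0 and 16693 to 38412 at P16. Its miR-183-5p, miR-182-5p and miR-96-5p gave -0.58, -0.97 and -1.59 at P0, each with all P0 libraries below both E16 libraries, and 0 of 3 were DE (FDR 0.0535 to 0.283). The red blood cell miRNAs miR-451a and miR-144-3p summed to 10.9 to 22.6 CPM at E16 and were at 0 in all P0 and P16 libraries. The E16 values rest on 13 counts of miR-451a and 4 of miR-144-3p. As 1 count equals 4.87 to 7.79 CPM in the P0 and P16 libraries, these zeros lie near the floor. Between P0 and P16 the summed muscle miRNAs went from 218 to 478 CPM to 1098 to 4297, through miR-1a-3p alone (3.73 on the log2 scale, DE). MiR-206-3p gave -1.31 (FDR 0.0911) and miR-133a-3p had no counts in the SE. Over the same interval the oligodendrocyte miRNA miR-338-3p went from 6.42 to 66.5 CPM to 296 to 490 (3.63 on the log2 scale, DE). The other one listed, miR-219a-2-3p, had 0 counts at P0 and 4 at P16, all in 1 library, and was not tested in the SE. The part of these in the changes of miR-26a-5p was not tested.

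In the SOC, miR-26a-5p was among the most abundant miRNAs, ranking 4 to 14 in the 11 libraries, and its level followed the library set. At E16 it stood at 55199.5, 27164, 29404 and 44698 CPM in replicates 1 to 4. At P0 it stood at 38158, 19336, 18636 and 13575 CPM. At P16 it stood at 46806, 10879 and 12605 CPM. Over all libraries the stages overlapped, while the 3 sets did not. The miR-99b-5p-rich libraries held 18636 to 29404 CPM, the miR-191-5p-poor ones 10879 to 13575, and those with neither mark 38158 to 55199.5. The sets were themselves drawn from the values of this table. How many of all SOC miRNAs separate by set was not counted, so this is not shown to be particular to the family. Between libraries of the same replicate number, miR-26a-5p was lower at P0 than at E16 in 4 of 4 pairs, 3 of which lie within one set. MiR-26b-5p and miR-26b-3p also were in 4 of 4, and miR-26a-1-3p in 2 of 4. The labels do not pair these libraries, and the pairing was taken from the values of this table. These counts were not tested or set against those of all miRNAs.

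The log2 fold changes of miR-26a-5p in the SOC were -0.80 for P0 against E16 (standard error 0.54, FDR 0.422), -0.74 for P16 against E16 (standard error 0.59, FDR 0.318) and 0.06 for P16 against P0 (standard error 0.58, FDR 0.95). With the set as a covariate they were -0.42 (FDR 0.105), -0.35 (FDR 0.224) and 0.07 (FDR 0.811). With the replicate number as a block, P0 against E16 gave -0.85 (FDR 0.212). In the miR-99b-5p-rich set, both P0 libraries (18636 and 19336 CPM) lay below both at E16 (27164 and 29404), with the P0 mean 0.58 lower on the log2 scale, at 67.1% of the E16 mean. Within the set with neither mark, the P0 library stood 0.39 below the E16 mean on the log2 scale, at 76.4% of it, and the P16 library at 93.7% of it, with 1 library at each of these stages. Neither within-set difference was tested. Without P16 replicate 1, the only P16 library of that set, the P16 against E16 change was -1.61 (FDR 0.0316) and DE. The 2 P16 libraries then left are both poor in miR-191-5p.

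**Figure D2:**
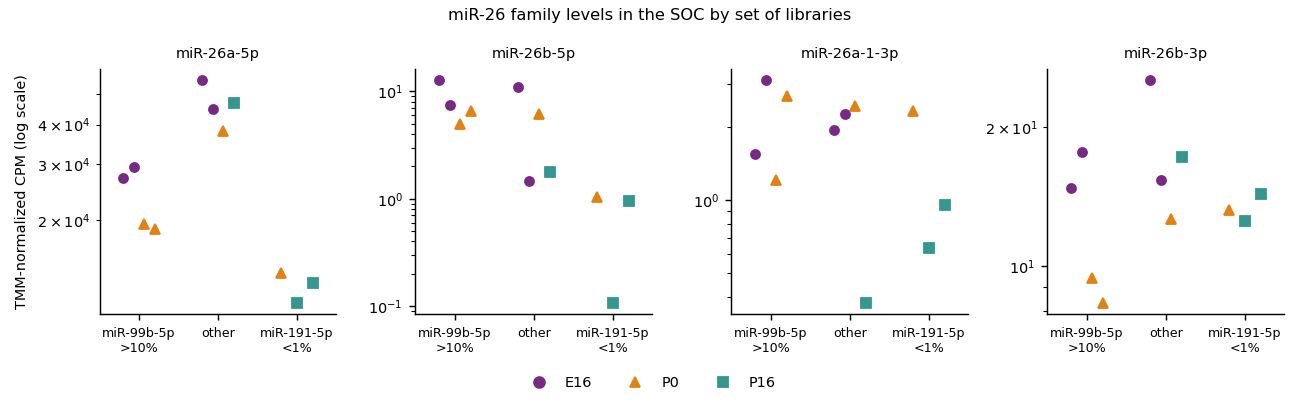
TMM-normalized CPM in the SOC (log scale) of each member by library set, with E16 as circles, P0 as triangles and P16 as squares. The sets occupy separate ranges for miR-26a-5p (18636 to 29404, 38158 to 55199.5 and 10879 to 13575 CPM), whereas miR-26a-1-3p is lowest at P16 in both sets that hold P16 libraries.

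MiR-26b-5p, which has the same seed as miR-26a-5p, was counted rarely in both organs. In the SOC the counts were 188, 164, 75 and 17 at E16, 136, 54, 83 and 9 at P0, and 19, 1 and 10 at P16. In CPM these were 1.48 to 12.7 at E16, 1.05 to 6.50 at P0 and 0.106 to 1.79 at P16. The P16 libraries were low, but E16 replicate 4 lay below the highest of them and P0 replicate 4 did too. The log2 fold change of P16 against E16 was -3.08 (standard error 0.93, FDR 0.0192), which was not DE because of that overlap, and P16 against P0 gave -2.28 (standard error 0.91, FDR 0.0928).

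The low SOC values of miR-26b-5p also went with the library set. The 3 libraries poor in miR-191-5p, 2 of them from P16, held 0.106 to 1.05 CPM, the miR-99b-5p-rich libraries 4.999 to 12.7 and the others 1.48 to 11.02. With the set as a covariate the P16 against E16 change was -1.81 (FDR 0.0788), and within the set with neither mark the P16 library stood at 28.6% of the E16 mean, which itself averaged 1.48 and 11.02 CPM. Without E16 replicate 4 the change was -3.43 (FDR 0.0100) and DE, and without P16 replicate 1 it was -3.76 (FDR 0.0149) and DE.

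In the SE, miR-26b-5p was near the floor of 3 counts. There were 8 and 23 counts at E16, 0, 2, 0 and 3 at P0, and 12, 0, 4 and 4 at P16. Pooled over libraries, E16 was 4.79 times P0 relative to library size (95% exact interval 1.85 to 15.8, counting error only) and P16 was 4.78 times P0 (1.74 to 16.3). These intervals leave out the spread between libraries. In the fit over all miRNAs the log2 fold changes were -2.11 (standard error 0.99, FDR 0.0965) for P0 against E16 and 2.09 (standard error 0.94, FDR 0.123) for P16 against P0, and neither was DE. The latter was DE without P16 replicate 2, which had no counts (2.56, FDR 0.0353), and the former with library totals (-2.55, FDR 0.0336).

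MiR-26a-1-3p, the 3p arm of the chromosome 9 gene, was the only member called DE in the SOC, and it was lower at P16. MiR-26b-5p had a larger change of P16 against E16 (-3.08, FDR 0.0192), and only the overlap of its libraries kept it from being called. At E16 miR-26a-1-3p had 33, 20, 31 and 26 counts, or 1.93, 1.54, 3.098 and 2.26 CPM. At P0 it had 54, 13, 34 and 20 counts, or 2.44, 1.20, 2.66 and 2.33 CPM. At P16 it had 4, 6 and 10 counts, or 0.376, 0.636 and 0.957 CPM. All 3 P16 libraries lay below all 8 earlier ones, and the E16 and P0 ranges overlapped. Of all miRNAs tested in the SOC, 52.2% had no overlap between P16 and E16, in either direction, and 28.0% none between P16 and P0. The fall was 3.32-fold against E16 (log2 fold change -1.73, standard error 0.54, FDR 0.0213) and 3.26-fold against P0 (-1.71, standard error 0.54, FDR 0.0447). P0 against E16 gave -0.03 (standard error 0.45, FDR 0.992).

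These changes of miR-26a-1-3p were as large once the library set was taken into account. With the set as a covariate they were -2.05 (FDR 0.0162) and -1.93 (FDR 0.0174), and the P16 library with neither mark stood at 17.9% of its E16 mean. The calls nevertheless rest on few counts. Neither was made without a filter on low values (FDR 0.0738 and 0.117), with all 21 libraries in one fit (0.162 and 0.158) or without the miR-99b-5p-rich libraries (0.0684 and 0.124). Leaving out 1 library at a time, the call against E16 was kept in 8 of 11 fits, and lost without E16 replicate 3, P16 replicate 1 or P16 replicate 2. The call against P0 was kept in 2 of 11, those without P0 replicate 2 or 4. Other miRNAs of the SOC changed as well. Of the hair cell list, 3 of 3 miRNAs were DE and lower at P16 against both earlier stages, and 1 was already DE and lower at P0 against E16. Of all miRNAs tested in the SOC, 20% were DE and lower at P16 against E16, 8.07% at P16 against P0 and 4.18% at P0 against E16. DE and higher were 21.2% at P16 against E16 and 8.07% at P16 against P0. The epithelial list summed to 926 to 1963 CPM at E16, 56.2 to 195 at P0 and 49.7 to 146 at P16, so its difference lay between E16 and P0 (3 of 4 tested DE and lower, against 0 of 4 for P16 against P0), where miR-26a-1-3p gave -0.03. The oligodendrocyte miRNAs miR-338-3p and miR-219a-2-3p summed to 376 to 436 CPM at E16, 174 to 434 at P0 and 2574 to 7748 at P16, and both were DE and higher at P16 against either stage. The part of these in the result was not tested. In the SE, miR-26a-1-3p had 26 and 35 counts at E16, 10, 5, 3 and 1 at P0, and 9, 0, 5 and 2 at P16. Its SE changes from E16 were -1.32 (standard error 0.75, FDR 0.176) at P0 and -1.38 (standard error 0.76, FDR 0.151) at P16, and neither was DE.

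MiR-26b-3p, the 3p arm of the chromosome 1 gene, was not DE in either organ and had its lowest SOC mean at P0. It stood at 25.3, 14.7, 17.7 and 15.4 CPM at E16, at 12.7, 9.44, 8.31 and 13.3 at P0, and at 17.2, 12.5 and 14.4 at P16. All P0 libraries lay below all E16 libraries, while P16 overlapped both. P0 against E16 gave -0.74 on the log2 scale (standard error 0.34, FDR 0.213), and -0.73 with the set as a covariate, where it was DE (FDR 0.0428). In the SE it stood at 353 and 396 CPM at E16, at 187, 199.8, 308 and 288 at P0, and at 260, 218, 133 and 193 at P16. Both E16 libraries lay above all later ones. Of all miRNAs tested in the SE, 48.1% had no overlap with E16 at P0, in either direction, and 46.2% at P16. The log2 fold changes of miR-26b-3p were -0.61 (standard error 0.46, FDR 0.33) at P0 and -0.89 (standard error 0.47, FDR 0.125) at P16. The latter was DE with library totals (-1.39, FDR 0.0168), with only miRNAs of at least 10 counts in every library (-0.999, FDR 0.0158) and without P16 replicate 1 (-1.09, FDR 0.0441).

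**Figure D3:**
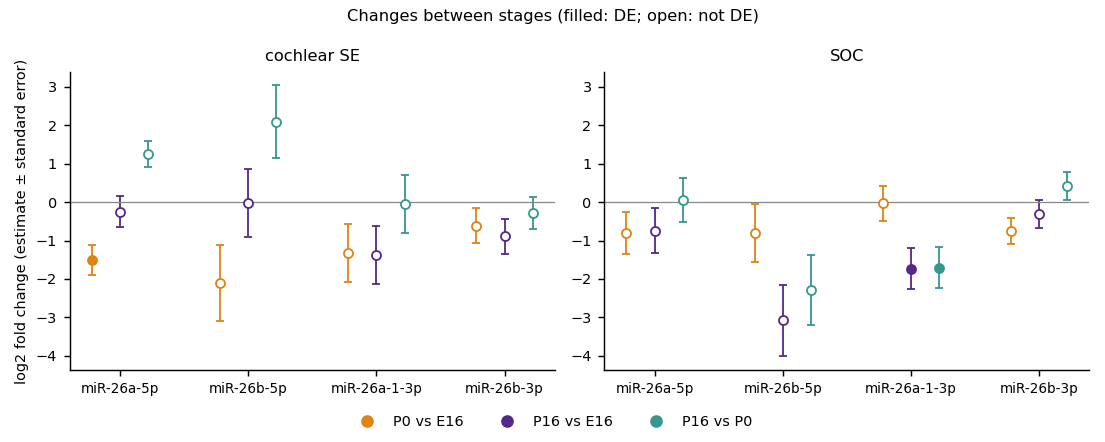
Log2 fold changes of the 4 members between stages in the cochlear SE and the SOC, as points with bars of 1 standard error. Filled points are DE. The filled points are miR-26a-5p for P0 against E16 in the SE (-1.51) and miR-26a-1-3p for both comparisons with P16 in the SOC (-1.73 and -1.71).

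MiR-26a-2-3p, the 3p arm of the chromosome 10 gene and no member of the group analysed, completes the picture of the miR-26a genes. In the SE it stood at 264 and 280 CPM at E16, at 53.6 to 161 at P0, and at 128, 23.4, 33.2 and 14.9 at P16. Its P16 against E16 change there was -2.35 (standard error 0.55, FDR 0.000141) and DE, whereas the shared 5p arm miR-26a-5p gave -0.25 in the same libraries. In the SOC its level followed the library set, at 16.5 to 23.7 CPM in the miR-99b-5p-rich libraries, 3.30 to 10.7 in those with neither mark and 0.582 to 1.15 in the miR-191-5p-poor ones. Its counts exceeded those of miR-26a-1-3p in 8 of 10 SE libraries and in 9 of 11 SOC libraries.

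The proportions of the members were read within each library, where depth cancels. Of the summed counts of the members, which leave out miR-26a-2-3p, miR-26a-5p took 55.3% to 91.3% in the SE and 99.87% to 99.96% in the SOC. In the SE library with the lowest share, miR-26a-5p had 63 counts, miR-26b-3p 48 and miR-26a-2-3p 25. With miR-26a-2-3p included, miR-26a-5p was therefore not the majority in that library. MiR-26a-5p exceeded miR-26b-5p in all 21 libraries, by a median of 62.7 times (39.8 to 423) in the SE and 6182 times (2140 to 68408) in the SOC, with 0.5 counts added. As the kits differ, these ratios are not compared between organs. Counts of miR-26b-3p exceeded those of miR-26b-5p from the same hairpin in 10 of 10 SE libraries (median 15.2 times) and 11 of 11 SOC libraries (median 2.35 times), the reverse of the usual order of these arms. The cause was not tested.

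The log2 ratio of miR-26a-5p to miR-26b-5p in the SOC averaged 12.53 ± 1.63 (SD, n = 4) in E16 libraries, 12.39 ± 0.92 (n = 4) in P0 libraries and 14.77 ± 1.23 (n = 3) in P16 libraries. In the SE it averaged 6.10 ± 0.35 (n = 2), 6.70 ± 1.51 (n = 4) and 6.21 ± 1.09 (n = 4). These SE values depend on the 0.5 counts added, since 3 of the 10 SE libraries had 0 counts of miR-26b-5p. With 5 counts added, all 3 SE differences between stages changed sign, from 0.60 to -1.25 for P0 against E16, from 0.11 to -0.87 for P16 against E16 and from -0.49 to 0.37 for P16 against P0. The largest stage difference, with 0.5 counts added, was that of P16 against P0 in the SOC, 2.38, with an exact two-sided permutation p of 0.0571 and an adjusted p of 0.343 over the 6 comparisons. P16 against E16 gave 2.24 (exact permutation p = 0.143). The other 4 comparisons had exact permutation p-values of 0.6 to 0.933. The smallest p this test allows is 0.0667 for comparisons with E16 in the SE, which cannot pass 0.05, and 0.0286 for the others. All 3 P16 libraries of the SOC had ratios of at least 12541, above 3 of the 4 at E16 and all 4 at P0 (2849 to 12287). The ratio also varied by set, at 2140 to 3897 in the miR-99b-5p-rich libraries and 12287 to 68408 in the miR-191-5p-poor ones. Libraries with neither mark held 4996 to 29403, which overlaps the latter range.

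**Figure D4:**
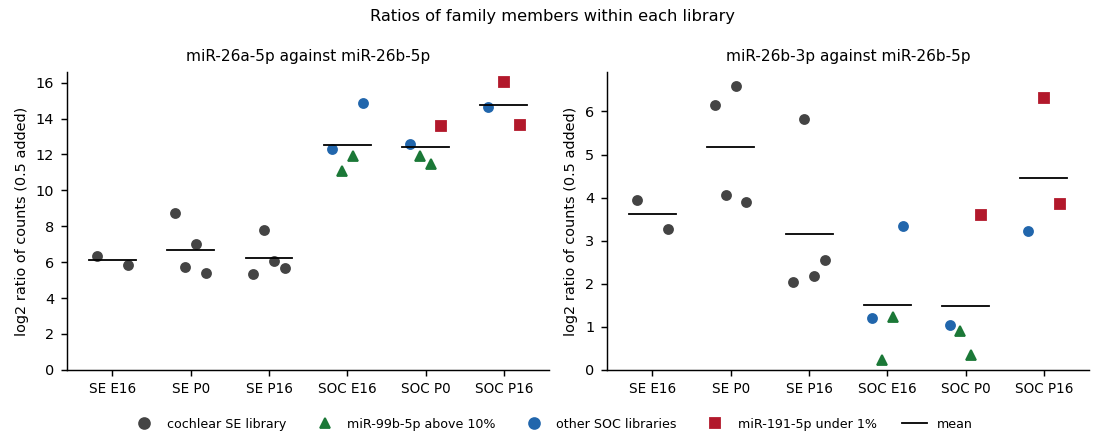
Log2 ratios of counts within each library, with 0.5 counts added, of miR-26a-5p to miR-26b-5p and of miR-26b-3p to miR-26b-5p, by organ and stage. Points are libraries, coloured by library set in the SOC, and lines are means. All points lie above 0, and the SOC means of the left panel are 12.53, 12.39 and 14.77.

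Whether the members changed differently in the 2 organs was tested with the interaction of organ and stage in an edgeR fit to the 21 libraries, over the 545 miRNAs tested in both. None of the 4 members passed an FDR of 0.05. The background was 11.9% of miRNAs for P0 against E16, 16.9% for P16 against E16 and 6.42% for P16 against P0. At an unadjusted p under 0.05 there were 0, 1 and 1 members, and DESeq2 called 0, 1 and 1, each time miR-26b-5p. The SOC change of miR-26b-5p minus its SE change was -4.54 on the log2 scale for P16 against P0 (standard error 1.44, FDR 0.0564) and -3.32 for P16 against E16 (standard error 1.42, FDR 0.109). With the replicate number as a block the former was -5.12 (FDR 0.0261). It rests on the few SE counts given above, and with the SOC set as a covariate it was -3.65 (FDR 0.0601). For miR-26a-5p the difference was 0.62 (standard error 0.79, FDR 0.609), -0.72 (standard error 0.83, FDR 0.627) and -1.34 (standard error 0.75, FDR 0.273) for the 3 comparisons in the same order. The last became -2.24 (FDR 0.0362) without SOC P16 replicate 1.

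The miRNAs whose profile was most like that of the 5p members were ranked by Pearson correlation of log2 CPM over the libraries of an organ, among miRNAs of at least 100 CPM on average. These are descriptions over libraries that share their stage, depth and set. Over the 10 SE libraries the closest to miR-26a-5p of 241 candidates were miR-126a-3p, typical of endothelium (r = 0.94), miR-143-3p, typical of smooth muscle and connective tissue (0.94), and miR-379-5p, of a large imprinted cluster (0.94). The closest to miR-26b-5p there, with the family left out of the ranking, were miR-146a-5p (0.84), miR-145a-3p (0.82) and miR-30e-3p (0.797). The correlation of miR-26b-5p with miR-26a-5p itself was 0.804 in the SE, between the second and the third of these. Over the 11 SOC libraries the closest to miR-26a-5p of 174 candidates were miR-423-5p (0.96), miR-423-3p (0.95) and miR-298-5p (0.92), and to miR-26b-5p miR-340-5p (0.91), miR-708-3p (0.90) and miR-30c-5p (0.90). In the SOC the 2 members with the same seed correlated at 0.57, under these neighbours of either.

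The circuit in which the host genes take part also involves other miRNAs, and 7 of them were listed for comparison: miR-124, which targets Ctdsp1, miR-9, which targets REST, and miR-132 and miR-212, whose shared gene is silenced by REST. All 7 arms were tested in both organs. In the SE, 3 of 7 were DE and lower at P0 and at P16 against E16, beside 16.6% and 18.6% of all miRNAs tested there. The 3 were miR-124-3p (-3.03 and -1.09), miR-9-3p (-3.73 and -3.63) and miR-9-5p (-1.26 and -1.54). Of these miR-124-3p alone was DE and higher at P16 against P0 (1.94, FDR 1.3e-05), the comparison in which miR-26a-5p gave 1.26. The median log2 fold change of the 7 was -1.87 at P0 and -1.54 at P16 against E16 in the SE, against 0.00 and -0.09 over all miRNAs.

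In the SOC, 2 of the 7 were DE and higher at P0, beside 2.45% of all miRNAs tested there. The 2 were miR-132-3p (1.46, FDR 0.0443) and miR-212-5p (1.73, FDR 0.0168). At P16 against E16, 4 of the 7 were DE and higher, beside 21.2% of all miRNAs tested. These were miR-124-3p (2.58, FDR 0.0129), miR-132-3p (3.26), miR-212-3p (3.11) and miR-212-5p (3.38). The 2 that were DE and lower, beside 20% of all, were miR-124-5p (-1.21) and miR-9-3p (-2.11). At P16 against P0, 3 of the 7 were DE and higher and 1 DE and lower, beside 8.07% of all miRNAs in either direction. The medians of the 7 were 1.03, 2.58 and 0.29, against 0.17, 0.08 and -0.15 over all miRNAs. Thus in the SOC the miR-132 and miR-212 arms were higher at P16 while no member of the miR-26 family was DE and higher. In the SE miR-26a-5p and miR-124-3p both had their lowest mean at P0, an order that the list as a whole did not share. The SE means of miR-9-5p, miR-124-5p and miR-212-3p were lowest at P16 (316, 1.66 and 5.27 CPM), and that of miR-132-3p at E16 (71.9 CPM). MiR-9-3p averaged 75.6 CPM at P0 and 78.4 at P16, and miR-212-5p, with 0 counts at P0, had at most 2 in any SE library. The level of miR-9-5p at P16 in the SOC, 7688 to 34478 CPM, had its highest value in the library with neither mark.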

How the data were processed

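MiRNA-seq counts were available for 21 libraries, each mapped to organ, stage and replicate by its label, with 0 unmapped columns. The authors deposited 1 table of raw counts per mature miRNA, without normalization. The methods state alignment with Bowtie to a reference built from MirGeneDB, and the submitters' processing notes name Bowtie2 2.2.5, DESeq2 and build mm10, whereas the table carries miRBase names. The counting step is not given in the sources used here. PCR copies were not distinguished, so intervals and the floor of 3 counts cover counting error only.

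Counts were tested per organ with edgeR 4.0.16 in R 4.3.3 (TMM, quasi-likelihood) among miRNAs that exceeded 1 CPM in 2 or more libraries of any stage. FDR values are Benjamini-Hochberg adjusted, and the standard error is the log2 fold change over the square root of F. P-values measure the spread between libraries, each a pool of animals. In the SE the fit in effect used a spread shared by all tested miRNAs, not one specific to each member. In the SOC the spread includes the differences between library sets. Ratios were compared by exact permutation in Python 3.11.15. The scripts were tested on simulated data. The miRNAs named were the members, miR-26a-2-3p, those sharing a seed, the 3 nearest profiles per organ (prior count 2) and the circuit list. Members, lists, library sets and tests were chosen with earlier results of these data known. Alternatives were DESeq2 1.42.0, other scalings, filters and fold changes, a joint fit, the library set, a block of the replicate number, and leaving out libraries. Same-numbered SOC libraries of E16 and P0 deviated together from their stage means in 4 of 4 pairs (r = 0.251 to 0.490), a pairing taken from the values alone, and other comparisons were not paired in this sense. No 2 libraries of a group agreed within sampling noise (chi-square per degree of freedom at least 5.95).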

Additional observations from a re-analysis of the deposited data

Results flagged for a closer look

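The level of miR-26a-2-3p in P16 replicate 1 of the cochlear SE, 128 CPM, lay far above the 14.9 to 33.2 CPM of the other 3 P16 libraries (Dixon's ratio 0.837 for 4 samples). Of 20 groups of 4 libraries tested for the family, this 1 stood out, and chance alone gives about 1 in 20. The library had 25 counts of this miRNA, against 2 to 5 in the others. It had also the highest miR-26a-5p, miR-26b-5p, miR-26a-1-3p and miR-26b-3p of the P16 SE libraries.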

How the results depend on the processing

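The number of DE members depended on several settings. In the SE, P0 against E16 (1 as reported) gave 2 with library totals and 0 with all 21 libraries in one fit. P16 against E16 (0) gave 1 with library totals and 1 with at least 10 counts in every library, and P16 against P0 (0) gave 1 with no criterion on overlap. In the SOC, P0 against E16 (0) gave 1 with the library set as a covariate. P16 against E16 (1) gave 2 with library totals or no criterion on overlap, and 0 with no filter, at least 10 counts in every library, one fit of all libraries or without the miR-99b-5p-rich libraries, and P16 against P0 (1) gave 0 in these 4. The filter at 10 counts removes miR-26a-1-3p, and the cause of the other changes was not tested. The interaction count for P16 against P0 (0) was 1 with DESeq2, RLE size factors, library totals or the replicate block, and for P16 against E16 (0) 1 with DESeq2. The replicate block changed no other call. Leaving out 1 library gave 0 to 1, 0 to 1 and 0 to 2 DE members in the SE, 0 to 0, 0 to 2 and 0 to 2 in the SOC, and 0 to 0, 0 to 1 and 0 to 2 interactions, for P0 against E16, P16 against E16 and P16 against P0 in turn. For miR-26a-1-3p in the SOC, the P16 against E16 call was kept in 8 of 11 such fits (lost without E16 replicate 3 or P16 replicates 1 or 2) and the P16 against P0 call in 2 of 11 (without P0 replicates 2 or 4). A fold change over 2 changed no count. Some log2 fold changes near 0, none of them DE, changed sign. In the SE these were P16 against E16 of miR-26b-5p (-0.02) with RLE (0.086), DESeq2 (0.074) and the joint fit (0.12), and P16 against P0 of miR-26a-1-3p (-0.05) in the same settings (0.055, 0.037 and 0.094). In the SOC these were P16 against P0 of miR-26a-5p (0.06) with library totals (-0.21), no filter (-0.060), the replicate block (-0.21) and without the miR-99b-5p-rich libraries (-0.12), P0 against E16 of miR-26a-1-3p (-0.03) with library totals (0.13), the joint fit (0.16) and without those libraries (0.17), and P16 against E16 of miR-26b-3p (-0.31) in the joint fit (0.095). Organ differences that changed sign were P0 against E16 of miR-26b-3p (-0.24) with library totals (0.51) and the filter at 10 counts (0.51), and P16 against E16 of miR-26a-1-3p (-0.41) with library totals (0.22). Leaving out 1 library, the SE change for P16 against E16 ranged from -0.70 to 0.43 for miR-26b-5p and from -0.47 to 0.049 for miR-26a-5p, and that for P16 against P0 from -0.63 to 0.61 for miR-26a-1-3p. In the SOC the ranges were -0.84 to 0.45 for miR-26a-5p, P16 against P0, and -0.19 to 0.18 for miR-26a-1-3p, P0 against E16. The organ differences ranged from -0.42 to 0.088 for miR-26b-3p and from -0.80 to 0.22 for miR-26a-1-3p. The log2 ratio of miR-26a-5p to miR-26b-5p turned in the SE with 5 counts added in place of 0.5 (-1.25, -0.87 and 0.37 for P0 against E16, P16 against E16 and P16 against P0), where most libraries held fewer than 5 counts of miR-26b-5p. Leaving out 1 library it ranged from -0.070 to 1.05, -0.41 to 0.41 and -1.01 to 0.18 in the SE for these comparisons and from -0.63 to 0.63 for P0 against E16 in the SOC, from 1.60 to 3.01 for P16 against E16 and from 1.74 to 2.96 for P16 against P0. Depth limits the SE most, where 1 count equals 1.74 to 7.79 CPM.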
